A study of Mus musculus with 6 samples.

Results

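The genes described here move cargo into, along and out of primary cilia. They comprise 37 genes of intraflagellar transport, the BBSome, the kinesin-2 motors, the transition zone and the handling of ciliary membrane proteins. They were chosen by name and not by their measured values, and all 37 were found among the 24661 genes of the expression tables. Their RNA was measured by RNA-Seq of olfactory mucosa in 3 wild-type mice and 3 RTP1,2DKO mice, all C57BL/6 and 21 days old. RTP1,2DKO mice lack Rtp1 and Rtp2, which encode accessory proteins of odorant receptor (OR) trafficking, on both alleles, because the coding regions had been replaced in hybrid 129/B6 embryonic stem cells before the line was backcrossed to C57BL/6. The wild-type mice were littermates matched for sex, both sexes were used, and the labels list no treatment. The deletion is present in every cell of the animal, and the libraries were made from the whole mucosa, with the tissue that surrounds the olfactory epithelium.

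Olfactory sensory neurons (OSNs) carry their ORs on long, immotile cilia at the tip of the dendrite. Cilia have no ribosomes of their own, so their proteins are delivered by intraflagellar transport trains, which kinesin-2 motors pull outward and dynein-2 pulls back. The BBSome is a membrane coat that links signalling proteins to these trains, the transition zone is the gate at the base of the cilium, and mutations in many of these genes cause ciliopathies such as Bardet-Biedl syndrome, in which the sense of smell can be impaired. The same machinery builds motile cilia, which line the respiratory part of the nasal cavity.

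The total estimated count lay between 31125410 and 41636996 per mouse, of which the 37 genes took between 0.147% and 0.207%. A single secreted-protein gene, Bpifb9b, took between 4.81% and 13.74%. Counts were scaled by a size factor per mouse and are called normalized counts. Rtp1 had 20522, 25301 and 13543 normalized counts in the wild-type mice and 90.6, 85.5 and 109 in the RTP1,2DKO mice, and Rtp2 had 8497, 9510.5 and 7157 and 58.0, 26.2 and 51.0, so the deleted genes matched the labels in all 6 mice. Omp, the classical marker of mature OSNs, had at least 27622 normalized counts in every mouse, so the labelled tissue was present in every library. Wild-type replicate 1 and RTP1,2DKO replicate 1 stood apart in 1 respect. Each mouse was set against the mean of the other mice of its own group. In replicates 1, genes with transcripts of at least 7000 bases stood 0.44 and 0.29 higher in log2 than those with transcripts under 1500 bases. In the other 4 mice the same difference lay between -0.26 and -0.13.

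None of the 37 genes passed an adjusted p of 0.05 between RTP1,2DKO and wild-type (quasi-likelihood test of edgeR, Benjamini-Hochberg adjustment over all 22152 genes tested, n = 3 per group). Over all genes tested, 3.63% passed this threshold, 3.19% as lower and 0.438% as higher in RTP1,2DKO. The fitted log2 fold change was below 0 for 32 of the 37 genes, beside 47.4% of all genes tested and 47.2% of the 13900 with a mean of at least 100 normalized counts. Its median was -0.18 over the 37 genes and 0.02 over all genes tested, and it ran from -0.45 for Bbs12 to 0.27 for Ift22. The 5 genes above 0 were Ift20, Ift22, Ift57, Mks1 and Unc119, and for each of them the groups overlapped. At an unadjusted p under 0.05 stood 7 genes, all with lower values in RTP1,2DKO, beside 7.43% of all genes tested in that direction and 4.7% in the other. With DESeq2's Wald test 2 of the 37 genes passed the threshold, Bbs1 and Ift80, where 5.02% of all genes did, 4.04% as lower and 0.98% as higher.

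The groups did not overlap for 12 of the 37 genes, in each case with every RTP1,2DKO mouse below every wild-type mouse, and for none in the other direction. Of all genes tested, 9.24% were separated in this direction and 7.17% in the other, and 10.5% in this direction among the 13900 genes with a mean of at least 100 normalized counts. The 12 were Ift27, Ift80, Ift88, Ift172, Bbs1, Bbs7, Ttc8, Bbs12, Kif3a, Kifap3, Tmem67 and Tulp3. Summed over the 37 genes, the normalized counts were 66963, 65761 and 58252 in the wild-type mice and 56006, 54366 and 55341 in the RTP1,2DKO mice. The RTP1,2DKO mice all lay below the wild-type mice in this sum, at 86.8% of the wild-type mean. In whole tissue, fewer cells of a type and less RNA per cell cannot be told apart.

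**Figure D1:**
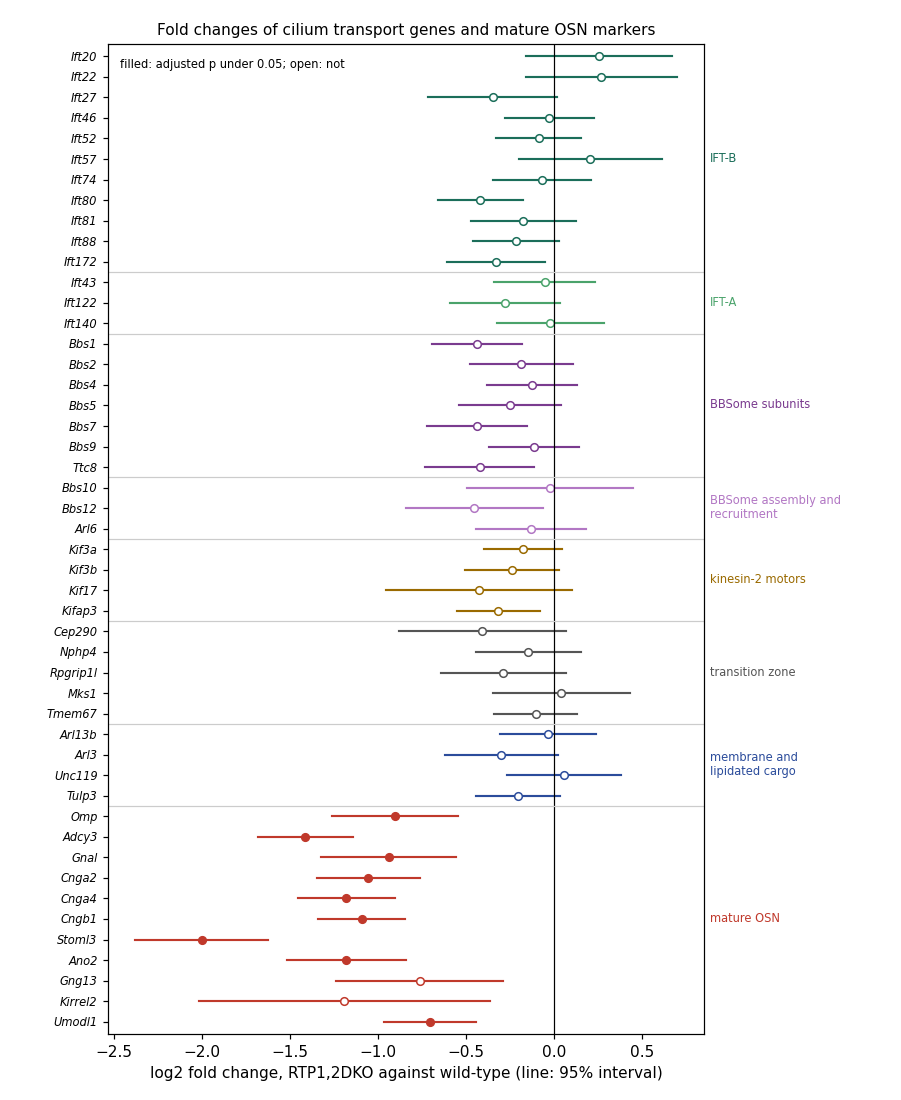
Fitted log2 fold change of each gene in RTP1,2DKO against wild-type, with its 95% interval as a line, for the 37 cilium genes grouped by role and for 11 markers of mature OSNs. All 37 cilium points are open, meaning that the adjusted p was not under 0.05, and lie between -0.45 and 0.27, while the 11 markers lie between -2.0 and -0.70, with 9 of them filled.

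Many cilium genes are switched on by RFX transcription factors, which bind a promoter element called the X-box, made of an inverted pair of half-sites. RefSeq promoter windows of 300 bases (GRCm38.p6, from 250 bases before to 50 bases after the transcript start) were at hand for 33 of the 37 genes. Ift80, Ift81, Ift122 and Tmem67 had no window in the table. An X-box with 0 to 3 bases between its half-sites was found, on either strand, in 3 of the 38 windows of these 33 genes, which is 7.89%, beside 1.53% of all 32851 windows. The half-site GTTGCC, with which all 4 X-box matches printed here begin, stood in 13 of the 33 genes (34.2% of their windows, against 12.5% of all windows). All 3 promoters with an X-box are printed. They belong to genes of 3 different roles, a motor, a train subunit and a BBSome subunit. They are written 5′ to 3′ on the strand of the gene with the X-box letters in capitals.
Kif17 (chr4:138262001-138262300, plus strand): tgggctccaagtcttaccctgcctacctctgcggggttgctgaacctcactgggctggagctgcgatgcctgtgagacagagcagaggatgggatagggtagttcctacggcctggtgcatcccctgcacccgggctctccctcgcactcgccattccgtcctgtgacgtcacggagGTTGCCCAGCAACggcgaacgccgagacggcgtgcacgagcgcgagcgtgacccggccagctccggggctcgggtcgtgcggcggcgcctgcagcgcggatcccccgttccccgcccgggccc
Ift57 (chr16:49699044-49699343, plus strand): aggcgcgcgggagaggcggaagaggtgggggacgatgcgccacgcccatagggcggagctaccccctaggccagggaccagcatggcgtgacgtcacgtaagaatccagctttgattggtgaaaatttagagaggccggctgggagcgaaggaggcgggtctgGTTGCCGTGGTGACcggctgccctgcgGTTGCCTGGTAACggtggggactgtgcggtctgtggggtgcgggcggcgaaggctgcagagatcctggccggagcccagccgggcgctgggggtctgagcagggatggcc
Bbs1 (chr19:4906578-4906877, minus strand): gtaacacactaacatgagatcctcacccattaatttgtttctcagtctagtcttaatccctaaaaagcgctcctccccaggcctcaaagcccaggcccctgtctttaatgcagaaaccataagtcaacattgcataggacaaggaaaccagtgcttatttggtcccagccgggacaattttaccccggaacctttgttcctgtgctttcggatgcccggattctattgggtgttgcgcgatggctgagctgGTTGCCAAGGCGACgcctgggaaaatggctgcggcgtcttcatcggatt
The match began 73 bases before the start in Kif17, 87 and 60 bases before it in Ift57, whose window holds a pair of matches, and 2 bases after it in Bbs1. The fold changes of these 3 genes did not share a sign. Kif17 had a log2 fold change of -0.43, Bbs1 of -0.44 and Ift57 of 0.21, with adjusted p-values of 0.565, 0.072 and 0.761 in edgeR's quasi-likelihood test. A match of letters is no measurement of binding.

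IFT-B is the train complex that carries cargo toward the tip of the cilium. None of its 11 genes passed the test, 8 had a log2 fold change below 0, and the median was -0.09. Ift80 (chr3:68892499-69004570, GRCm38), a peripheral subunit of the complex, had the smallest p-value of all 37 genes. It stood at 4651, 4493 and 4027 normalized counts in the wild-type mice and 3471, 3137 and 3251 in the RTP1,2DKO mice. Every RTP1,2DKO mouse lay below every wild-type mouse, and the log2 fold change was -0.42 (SE 0.11, n = 3 per group, adjusted p = 0.063). Over the alternative fits the adjusted p of Ift80 ran from 0.013, with DESeq2, to 0.276.

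Ift172, which contacts the membrane and takes part in the turnaround of trains at the tip, had 2712, 2028 and 2125 normalized counts in the wild-type mice and 1819.8, 1777 and 1868 in the RTP1,2DKO mice. Its groups did not overlap, with replicate 1 the highest of the wild-type mice, and the log2 fold change was -0.33 (SE 0.13, n = 3 per group, adjusted p = 0.290). Ift27 encodes a small GTPase of the complex that helps the BBSome leave the cilium. It had 341, 397 and 372 normalized counts in the wild-type mice and 244, 298 and 329 in the RTP1,2DKO mice, again without overlap, and its log2 fold change was -0.35 (SE 0.17, n = 3 per group, adjusted p = 0.454). Ift88, a core subunit whose loss leaves cells without cilia, had 2153, 1996 and 2014 normalized counts in the wild-type mice and 1919.9, 1654 and 1732 in the RTP1,2DKO mice. These values also did not overlap, but lay closer to each other, and the log2 fold change was -0.22 (SE 0.11, n = 3 per group, adjusted p = 0.503).

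Ift81 and Ift74, which together bind tubulin as cargo, had log2 fold changes of -0.17 and -0.07, and the core subunits Ift46 and Ift52 had -0.03 and -0.09, all with overlapping groups. The 3 genes of this complex above 0 were the small GTPase gene Ift22 at 0.27, Ift57 at 0.21 and Ift20, whose protein also sits at the Golgi apparatus, at 0.26. Ift22 and Ift57 were among the 8 of the 37 genes with a mean under 500 normalized counts. The 95% intervals of all 3 included 0, and that of Ift20 ran from -0.16 to 0.67. In Ift20, wild-type replicate 3 stood at 665 normalized counts and above all 3 RTP1,2DKO mice, while the other wild-type mice stood at 383 and 438, below them all.

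IFT-A brings membrane receptors into the cilium and serves the return journey. Its 3 genes had a median log2 fold change of -0.05, all 3 values were below 0, and the groups overlapped for each. Ift122, a core subunit, had 1294, 1064 and 912 normalized counts in the wild-type mice and 874, 862 and 960.3 in the RTP1,2DKO mice, where only RTP1,2DKO replicate 3 reached into the wild-type range, and its log2 fold change was -0.28 (SE 0.14, n = 3 per group, adjusted p = 0.499). Ift140 at -0.02 and Ift43 at -0.05 had intervals from -0.33 to 0.29 and from -0.34 to 0.23. Both changed sign when single mice were left out.

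All 7 BBSome subunits had a log2 fold change below 0, with a median of -0.25. None passed the test, and roles were not tested against each other. In 3 of the 7 the groups did not overlap, with RTP1,2DKO lower. Of all genes tested, 9.24% were separated in this direction, and 10.5% of those with a mean of at least 100 normalized counts. Bbs1 (chr19:4886878-4906628), the subunit that meets the recruiting GTPase Arl6, had 3444, 3592 and 2960.3 normalized counts in the wild-type mice and 2485, 2628 and 2263 in the RTP1,2DKO mice. The highest RTP1,2DKO mouse stood clear of the lowest wild-type mouse, and the log2 fold change was -0.44 (SE 0.12, n = 3 per group, adjusted p = 0.072). Its adjusted p ran from 0.019, with DESeq2, to 0.304 over the alternative fits, and it was 0.045 without wild-type replicate 3.

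Bbs7, a structural subunit that pairs with Bbs2, had 1499.9, 1717 and 1312 normalized counts in the wild-type mice and 1152, 1168 and 1022 in the RTP1,2DKO mice. The groups did not overlap, and the log2 fold change was -0.44 (SE 0.13, n = 3 per group, adjusted p = 0.114). Ttc8, also known as Bbs8, had 1148, 1472 and 1075 normalized counts in the wild-type mice and 845, 977 and 938 in the RTP1,2DKO mice, with wild-type replicate 2 far above the rest and no overlap. Its log2 fold change was -0.42 (SE 0.14, n = 3 per group, adjusted p = 0.184). Of the other subunits, Bbs2 at -0.18, Bbs4 at -0.13, Bbs5 at -0.25 and Bbs9 at -0.11 had overlapping groups and adjusted p-values of 0.520 or more in edgeR's quasi-likelihood test. Summed over the 7 subunits, the normalized counts in RTP1,2DKO were 81.9% of the wild-type mean and lay below it in all 3 mice.

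The genes that assemble and recruit the BBSome are Bbs10 and Bbs12, whose products resemble chaperonins, and the small GTPase gene Arl6, also known as Bbs3. Bbs12 had the lowest fitted value of all 37 genes. It stood at 302, 356 and 280.0 normalized counts in the wild-type mice and 197, 245 and 243 in the RTP1,2DKO mice, without overlap, and the log2 fold change was -0.45 (SE 0.18, n = 3 per group, adjusted p = 0.297). Bbs10, at -0.02, and Arl6, at -0.13, had overlapping groups. In Arl6, wild-type replicate 2 stood at 2964 normalized counts and the other 5 mice between 2009 and 2235.

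Among the kinesin-2 motors, all 4 genes had a log2 fold change below 0, with a median of -0.28, and none passed the test. Kifap3, which encodes the accessory subunit of the heterotrimeric motor, had 3669, 3692 and 3319.8 normalized counts in the wild-type mice and 2850.4, 2703 and 3020.2 in the RTP1,2DKO mice. The groups did not overlap, and the log2 fold change was -0.32 (SE 0.11, n = 3 per group, adjusted p = 0.192). Kif3b, a motor subunit and the gene of the 37 with the highest mean normalized count, had 4788, 4442 and 3733 normalized counts in the wild-type mice and 3935, 3427 and 3624 in the RTP1,2DKO mice, where RTP1,2DKO replicate 1 reached into the wild-type range. Its log2 fold change was -0.24 (SE 0.12, n = 3 per group, adjusted p = 0.490). Its partner Kif3a had the smallest standard error of the 37 genes, and its 6 values lay within narrow bounds, at 4270.1, 4095 and 4193 normalized counts in the wild-type mice and 3712, 3676 and 3721 in the RTP1,2DKO mice. The groups did not overlap, although the log2 fold change was only -0.18 (SE 0.10, n = 3 per group, adjusted p = 0.565). Kif17, the homodimeric motor known for carrying the olfactory cyclic nucleotide-gated channel into cilia, was the least abundant gene of the 37. It had 144, 127 and 103 normalized counts in the wild-type mice and 81.1, 89.0 and 108 in the RTP1,2DKO mice, the groups overlapped, and the interval of its log2 fold change of -0.43 ran from -0.96 to 0.10, the lowest bound of any of the 37 genes.

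Of the 5 transition zone genes, 4 had a log2 fold change below 0, the median was -0.15, and none passed the test. Cep290 links the axoneme to the membrane at the cilium base. It had 2017, 1261 and 1305 normalized counts in the wild-type mice and 1481, 821 and 1156 in the RTP1,2DKO mice, and both replicates numbered 1 stood highest in their groups. Cep290 has the longest transcript of the 37 genes, 8006 bases, and it is in these mice that long transcripts stood high. The part of transcript length in this result was not tested. Its log2 fold change was -0.41 with an adjusted p of 0.520 (edgeR's quasi-likelihood test) and -0.15 with an adjusted p of 0.855 without wild-type replicate 1. Rpgrip1l, another scaffold protein of the gate, has a transcript of 6969 bases and also stood highest in the replicates numbered 1, with 2890.2, 2338 and 1987 normalized counts in the wild-type mice and 2408, 1699.7 and 1807 in the RTP1,2DKO mice. Its log2 fold change was -0.29, and -0.13 without wild-type replicate 1.

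Tmem67, a membrane protein of the gate, was separated between the groups by a small margin, with 1897, 2104 and 1953 normalized counts in the wild-type mice and 1893, 1855 and 1790.4 in the RTP1,2DKO mice and a log2 fold change of -0.10. Nphp4 stood at -0.15 with an interval from -0.44 to 0.15, and Mks1 at 0.04 with an interval from -0.35 to 0.43. Both had overlapping groups.

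The last role is the handling of membrane proteins and of cargo held by lipid anchors. Arl3, the GTPase that releases lipid-anchored cargo inside the cilium, had 776, 732 and 566 normalized counts in the wild-type mice and 547, 576 and 562 in the RTP1,2DKO mice, where 1 RTP1,2DKO mouse lay just above the lowest wild-type mouse. Its log2 fold change was -0.30 (SE 0.15, n = 3 per group, adjusted p = 0.467). Tulp3, the adaptor that couples membrane receptors to IFT-A, had 2412, 2548 and 2477 normalized counts in the wild-type mice and 2199, 2288 and 1963 in the RTP1,2DKO mice, without overlap, and a log2 fold change of -0.21 (SE 0.11, n = 3 per group, adjusted p = 0.521). Arl13b, a GTPase of the ciliary membrane that activates Arl3, was at -0.03, and Unc119, a carrier of myristoylated proteins, at 0.06. The groups overlapped for both, and both changed sign when single mice were left out.

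**Figure D2:**
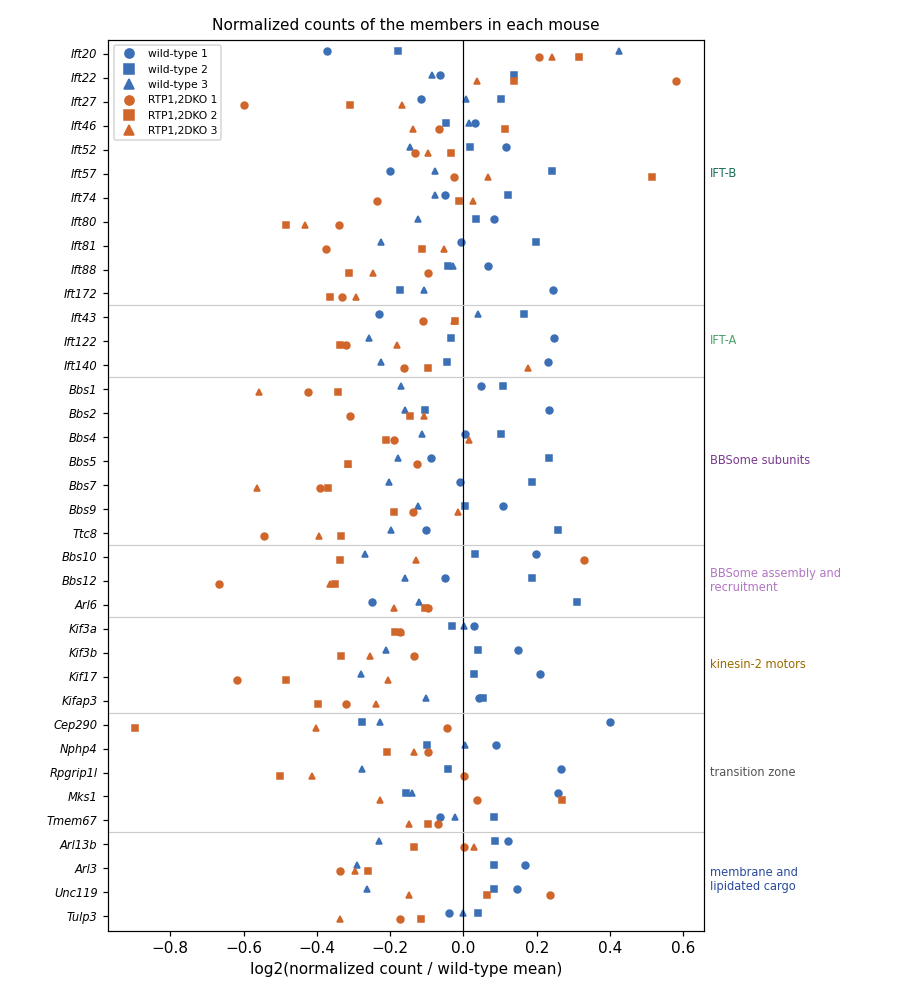
Normalized count of each of the 37 genes in each mouse, as log2 of its ratio to the wild-type mean of that gene (vertical line at 0), with wild-type mice in blue, RTP1,2DKO mice in orange and the shape of the marker giving the replicate. In 12 genes all 3 orange points lie left of all 3 blue points, in no gene do they lie right of them all, and wild-type replicate 3 is the leftmost blue point in 23 of the 37.

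Within the wild-type group the mice were not evenly placed. Wild-type replicate 3 was the lowest of its group in 23 of the 37 genes and the highest in 1, Ift20, while replicate 1 was the highest in 20 and replicate 2 in 16. In the RTP1,2DKO group each mouse was the lowest in 9 to 15 genes. Without wild-type replicate 3, the mouse nearest to the RTP1,2DKO mice in the summed count, 1 of the 37 genes passed the threshold, Bbs1. Between 524 and 716 of all genes passed with a mouse left out, and 804 (3.63%) in the fit of all mice. In fits that each lacked a single mouse, 25 of the 37 log2 fold changes stayed below 0 in all 6 fits and 3 stayed above 0, those of Ift20, Ift22 and Ift57.

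The level of the genes per transcript length is given by TPM, a measure of transcript abundance corrected for length and library total, which the authors deposited. Averaged over the 6 mice it ran from 1.09 TPM for Kif17 to 118 TPM for Ift43, with a median of 19.6 TPM. Ift43 had 120.0, 169 and 102 TPM in the wild-type mice and 123, 104 and 92.0 TPM in the RTP1,2DKO mice, and the groups overlapped. Its transcripts are 792 and 825 bases long, and levels of such short transcripts rest on a small effective length, 243 bases for the main one. Kif17, at the other end, had 1.67, 1.59 and 0.794 TPM in the wild-type mice and 0.883, 0.741 and 0.855 TPM in the RTP1,2DKO mice.

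Within IFT-B the highest mean level was that of Ift20, with 52.7, 64.3 and 63.6 TPM in the wild-type mice and 73.1, 62.8 and 53.9 TPM in the RTP1,2DKO mice, and the lowest that of Ift57, with 5.67, 8.2 and 4.29 TPM in the wild-type mice and 5.95, 6.89 and 4.56 TPM in the RTP1,2DKO mice. These levels were far apart from each other, and each overlapped between the groups. Within IFT-A the lowest was Ift122, with 12.8, 11.2 and 6.23 TPM in the wild-type mice and 8.0, 6.29 and 6.33 TPM in the RTP1,2DKO mice. The BBSome subunits ran from Bbs9, with 19.8, 19.6 and 11.7 TPM in the wild-type mice and 15.4, 11.9 and 12.1 TPM in the RTP1,2DKO mice, to Bbs5, with 69.7, 92.9 and 45.5 TPM in the wild-type mice and 63.2, 44.1 and 39.9 TPM in the RTP1,2DKO mice. Both overlapped between the groups. Among the genes of BBSome assembly and recruitment, the GTPase gene Arl6 had 72.4, 114 and 54.6 TPM in the wild-type mice and 74.9, 59.3 and 50.6 TPM in the RTP1,2DKO mice. The chaperonin-like Bbs10 had only 4.22, 4.0 and 2.12 TPM in the wild-type mice and 4.29, 2.15 and 2.25 TPM in the RTP1,2DKO mice.

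In the kinesin-2 group the highest level was that of Kifap3, with 37.2, 39.9 and 23.3 TPM in the wild-type mice and 26.8, 20.3 and 20.4 TPM in the RTP1,2DKO mice. In the transition zone group it was that of Tmem67, with 22.7, 26.8 and 16.2 TPM in the wild-type mice and 21.0, 16.4 and 14.3 TPM in the RTP1,2DKO mice. Nphp4 was the lowest there, with 4.26, 3.98 and 2.78 TPM in the wild-type mice and 3.48, 2.56 and 2.44 TPM in the RTP1,2DKO mice. For Kifap3 wild-type replicate 3 lay below the highest RTP1,2DKO mouse on this scale, although the groups were separated in normalized counts. Of the genes for membrane proteins and lipidated cargo, Arl3 had 94.5, 94.9 and 47.8 TPM in the wild-type mice and 61.9, 52.0 and 45.8 TPM in the RTP1,2DKO mice. Arl13b, the lowest of that group, had 27.3, 28.3 and 14.8 TPM in the wild-type mice and 23.3, 16.9 and 17.1 TPM in the RTP1,2DKO mice.

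TPM values add up to the same total in every mouse, so a higher level of some genes goes with lower values of others. The median log2 ratio of RTP1,2DKO to wild-type mean TPM was -0.23 over the 13899 genes with a mean of at least 100 normalized counts that had a TPM value in both groups. Over the 37 genes it was -0.44, which is -0.21 relative to that median, and 32 of the 37 genes lay below it. The summed TPM of the 37 genes in RTP1,2DKO was 76.5% of the wild-type mean.

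**Figure D3:**
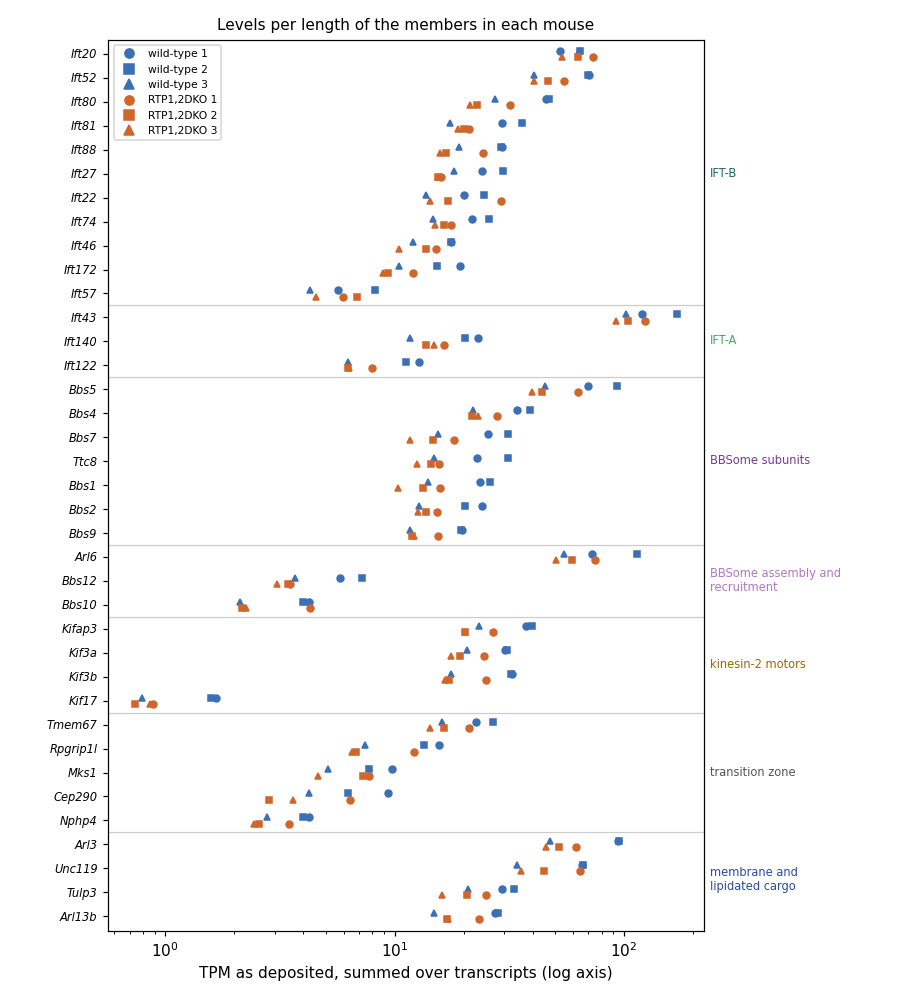
TPM of each of the 37 genes in each mouse on a log axis, summed over the transcripts of a gene, with the genes ordered by mean level within each role. The means run from 1.09 TPM for Kif17 to 118 TPM for Ift43, and wild-type replicate 3 (blue triangle) is the lowest wild-type mouse in 36 of the 37 genes.

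The tables list 1 transcript for 25 of the 37 genes and several for 12. For Kif3a, the share of its counts given to 1 of its 3 transcripts, of 5441 bases, was 60, 46.6 and 55.5% in the wild-type mice and 31.2, 4.2 and 17.9% in the RTP1,2DKO mice. Its other transcripts are of 5429 and 5450 bases, and the share of the last of these ranged from 0.1% to 72.1% between the 6 mice. For Kifap3 the shorter transcript took 74.4, 72.9 and 66% in the wild-type mice and 58, 65.3 and 40.6% in the RTP1,2DKO mice. For Ift122 the transcript of 4080 bases took 99.2, 72.8 and 76.8% in the wild-type mice and 84.8, 100 and 99.8% in the RTP1,2DKO mice, with overlapping groups. These genes are examples from the 12, and for others, such as Ttc8, Bbs9, Kif17 and Ift43, the shares overlapped between the groups. Reads that fit several such transcripts are divided by estimation. The shares were not tested between the groups, and all tests rest on the sum per gene.

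The rest of the pathway was covered by 53 further names of cilium transport and transition zone genes and of transcription factors that drive them, of which 52 were found. None of the 52 passed the test, where 3.63% of all genes did. At an unadjusted p under 0.05 stood 13, all lower in RTP1,2DKO, beside 7.43% of all genes in that direction. DESeq2's Wald test called 4, all lower, where it called 4.04% of all genes as lower. Of their log2 fold changes 41 were below 0, with a median of -0.12. The groups did not overlap for 15, all with RTP1,2DKO lower, beside 9.24% of all genes. The following genes were chosen after their values were seen. Pde6d, a carrier of prenylated proteins to cilia, had 798, 909 and 810.4 normalized counts in the wild-type mice and 601, 617 and 589.9 in the RTP1,2DKO mice and a log2 fold change of -0.48 (SE 0.13, n = 3 per group, adjusted p = 0.065). Tmem107, a membrane protein of the transition zone, had 1224, 1434 and 1388 normalized counts in the wild-type mice and 946, 1032 and 1006 in the RTP1,2DKO mice and a log2 fold change of -0.44 (SE 0.12, n = 3 per group, adjusted p = 0.074). Rp2, which acts on Arl3 to turn off its GTPase cycle, had 7074, 9516 and 6057 normalized counts in the wild-type mice and 5749, 5023 and 4805 in the RTP1,2DKO mice and a log2 fold change of -0.54 (SE 0.16, n = 3 per group, adjusted p = 0.101). In all 3 the groups were separate. DESeq2 called these 3 and Ahi1.

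The retrograde motor of the trains is dynein-2. Its heavy chain gene Dync2h1 had 7569, 5421 and 4043 normalized counts in the wild-type mice and 4583, 3481 and 3808 in the RTP1,2DKO mice, with wild-type replicate 1 far above the rest, overlapping groups and a log2 fold change of -0.52 (SE 0.19, n = 3 per group, adjusted p = 0.250). The 5 dynein-2 genes all had values below 0, with a median of -0.11. Of the 6 regulators, Rfx1, Rfx2, Rfx3, Rfx4, Rfx7 and Foxj1, none passed the test. Foxj1, the regulator of motile ciliogenesis, had 1418, 1316 and 1361 normalized counts in the wild-type mice and 1101, 1277 and 1133 in the RTP1,2DKO mice, without overlap and with a log2 fold change of -0.22 (SE 0.12, n = 3 per group, adjusted p = 0.512). Rfx4, the lowest of the 6, had 222, 216 and 166 normalized counts in the wild-type mice and 144, 133 and 112 in the RTP1,2DKO mice and -0.64 (SE 0.21, n = 3 per group, adjusted p = 0.176).

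Cilium transport genes are used by several kinds of ciliated cell, so the counts of the 37 genes were set beside markers of the cell types in the mucosa. All 11 markers of mature OSNs had a log2 fold change below 0, with a median of -1.09. Of these markers, 9 passed the test as lower, beside 3.19% of all genes tested. Their summed normalized count was 202554, 196447 and 181801 in the wild-type mice and 89544, 98505 and 95373 in the RTP1,2DKO mice, 48.8% of the wild-type mean. Omp had a log2 fold change of -0.90 (SE 0.16, n = 3 per group, adjusted p = 0.0067), and Adcy3, the adenylyl cyclase of the OSN cilium, of -1.41. For 36 of the 37 cilium genes the lower bound of the 95% interval lay above the value of Omp, and for the remaining gene, Kif17, it was -0.96. That count takes the value of Omp without its error. The interval of Omp ran from -1.26 to -0.55, and the lower bounds of several cilium genes reached into it, such as Ift80 at -0.66 and Bbs1 at -0.70. No fold change was tested against that of Omp. The summed count of the 37 genes, divided by the count of Omp, was 0.995, 1.1 and 0.868 in the wild-type mice and 2.03, 1.48 and 1.4 in the RTP1,2DKO mice. Divided by Adcy3 it was 4.21, 5.05 and 4.6 in the wild-type mice and 11.0, 10.3 and 10.6 in the RTP1,2DKO mice. Both ratios were higher in every RTP1,2DKO mouse than in every wild-type mouse. They restate the larger fall of Omp and Adcy3 and do not measure cilium RNA per OSN.

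Motile ciliated cells of the respiratory epithelium were represented by 15 genes of motile axonemes. Of these, 12 had log2 fold changes below 0, and the median was -0.23. The test was passed by 1 as lower, beside 3.19% of all genes tested. It was the axoneme assembly gene Ccdc40, with a log2 fold change of -0.56 (SE 0.12, n = 3 per group, adjusted p = 0.025). Their summed normalized count was 26007, 17972 and 18233 in the wild-type mice and 18547, 16709 and 17764 in the RTP1,2DKO mice. This was 85.2% of the wild-type mean, and the groups overlapped. Wild-type replicate 1 stood far above all other mice in this sum and raised the wild-type mean. Dnah5, for example, had 9558, 5369 and 5416 normalized counts in the wild-type mice and 6038, 5587 and 6333 in the RTP1,2DKO mice. The part of transcript length in this sum was not tested. No marker of this list was at 0 in any mouse, and the lowest was Spag6. The summed count of the 37 genes divided by that of these motile cilium genes was 2.57, 3.66 and 3.19 in the wild-type mice and 3.02, 3.25 and 3.12 in the RTP1,2DKO mice. The RTP1,2DKO values lay within the wild-type range, but its low end was wild-type replicate 1 alone, the mouse with the highest motile cilium sum. RTP1,2DKO replicates 1 and 3 lay below both other wild-type mice, and replicate 2 lay between them. The part of motile ciliated cells in the values of the 37 genes was not tested.

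Of the 6 markers of immature OSNs, 5 had a log2 fold change above 0, and the median over all 6 was 0.44. Gap43 and Gng8 passed the test as higher and Stmn4 as lower, beside 0.438% and 3.19% of all genes tested. For 4 of the 6, every RTP1,2DKO mouse lay above every wild-type mouse, beside 7.17% of all genes tested. Summed over the 6 markers, the normalized counts were 24515, 21759 and 19087 in the wild-type mice and 29566, 26949 and 27531 in the RTP1,2DKO mice. The 6 markers of neuronal progenitors did not pass the test, but each was higher in every RTP1,2DKO mouse than in every wild-type mouse, with a median log2 fold change of 0.50. None of the markers of sustentacular cells, horizontal basal cells, ensheathing glia and immune cells passed the test, and their medians lay between -0.10 and 0.13. The 6 haemoglobin genes, which mark blood, had log2 fold changes from 0.71 to 0.88, none past the threshold, and their summed count was 169.7% of the wild-type mean with overlapping groups. The part of OSN stages, blood and the other cells in the values of the 37 genes was not tested.

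**Figure D4:**
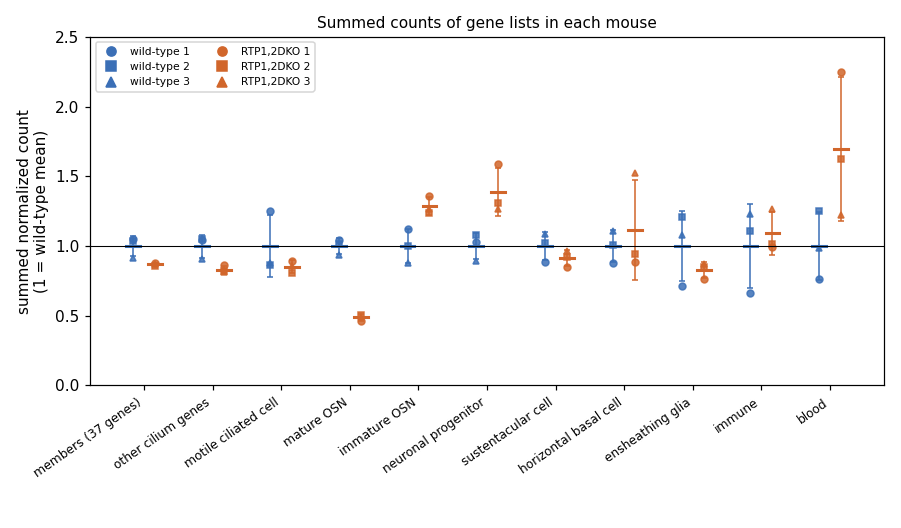
Summed normalized count of each gene list in each mouse, relative to the wild-type mean of that list (1 on the axis), with bars at the group means and whiskers of 1 SD over 3 mice. The 37 cilium genes lie between 0.854 and 0.880 in the RTP1,2DKO mice, the mature OSN markers between 0.463 and 0.509, and the blood markers between 1.22 and 2.25.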

How the data were processed

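Olfactory mucosa of 3 wild-type mice and 3 RTP1,2DKO mice was measured by RNA-Seq. Per the labels and the methods, the authors assigned the reads with kallisto (version not given in the sources used here) to mouse transcripts (mm10) with extended OR annotations. The authors deposited an estimated count, a TPM value, a length and an effective length for each transcript. The labels gave each mouse its group and replicate number.

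For each gene, the estimated counts of its transcripts were added up and rounded. All genes reaching 1 count in any mouse entered a quasi-likelihood F-test in edgeR 4.0.16, with DESeq2 1.42.0 giving the median-of-ratios size factors (R 4.3.3), and Benjamini-Hochberg adjustment at 0.05. Tables were made in Python 3.11.15 with numpy 2.4.6 and pandas 2.3.3. A 95% interval is that of the fitted log2 fold change, from its standard error and a t distribution. It does not give the range of single mice. Deposited TPM values were summed per gene and not tested. The fit was tested on simulated data. Gene positions came from GENCODE M21 (GRCm38) and promoters from RefSeq (GRCm38.p6).

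The alternatives were a block for the replicate number, DESeq2's Wald test, TMM normalization, edgeR's filter on low counts, fits that left out 1 mouse each and, for the summed count, TPM. All members are accounted for by role. Values in every mouse are given for the 12 with the smallest p and for the members with the highest and the lowest mean TPM in each role, and other members are named as examples. The members, the pathway list and the marker lists were chosen with earlier results of these data known. No test of a gene list was made.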

Additional observations from a re-analysis of the deposited data

How the results depend on the processing

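The median log2 fold change of the 37 genes lay between -0.21 and -0.15 with each mouse left out. The number of the 37 genes past the threshold was 0 in the reported fit, with TMM normalization and with the filter on low counts, 2 with DESeq2's Wald test (Bbs1 and Ift80), 1 with the replicate number as a block (Bbs1, adjusted p = 0.040, edgeR, where 4.03% of all genes passed) and 0 to 1 with each mouse left out, the 1 being Bbs1 without wild-type replicate 3. Of the other pathway genes, 4 passed with DESeq2 and 0 to 2 with each mouse left out. The latter were Tmem107 without wild-type replicate 1, and Dync2h1 and Rp2 without wild-type replicate 3. With other mice left out, their adjusted p rose to 0.236 for Tmem107, 0.356 for Rp2 and 0.623 for Dync2h1 (edgeR's quasi-likelihood test). The value for Dync2h1 came without wild-type replicate 1, where its log2 fold change was -0.26. Over all genes the count was 804, with 809 under TMM, 797 under the filter, 1112 with DESeq2, 892 with the block and 524 to 716 with each mouse left out, the lowest without RTP1,2DKO replicate 3. The log2 ratio of the summed counts of the 37 genes was -0.20, and -0.39 from TPM. Against the median of all genes on the TPM scale it was -0.16.

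The sign turned for 9 of the 37 genes, in 18 of 370 single-gene fits, all of them with a mouse left out, and the cause was not tested. Their log2 fold changes then ran from -0.10 to 0.023 for Ift46, from -0.12 to 0.0073 for Ift74, from -0.15 to 0.038 for Ift43, from -0.13 to 0.11 for Ift140, from -0.23 to 0.11 for Bbs10, from -0.24 to 0.055 for Arl6, from -0.090 to 0.19 for Mks1, from -0.14 to 0.031 for Arl13b and from -0.056 to 0.15 for Unc119.

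Both groups carry replicate numbers 1 to 3 in the labels, which do not tie them to a litter or day. Deviations from the group means correlated at 0.132, 0.171 and 0.0913 across 18156 genes for mice of the same number, and 5 of 6 mice correlated best with their own number. The numbers were not taken as pairs, and the reported fit has no term for sex or litter. With 3 mice per group, the median standard error of a log2 fold change over the 37 genes was 0.13. The 95% intervals reach further than that to each side. For Kif3a, with the smallest standard error, 0.10, the interval ran from -0.40 to 0.04 around -0.18. The intervals of 7 of the 37 genes excluded 0. A gene that missed the threshold was not shown to be unchanged.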
